A study of Mus musculus with 10 samples.

Results

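The glutathione peroxidase genes were followed in 10 murine pancreatic tumors, 5 from mice on regular water (CTRL) and 5 from mice on 30% dextrose water (D30). The 6 members, Gpx1, Gpx2, Gpx3, Gpx4, Gpx7 and Gpx8, are the rows whose mouse Ensembl identifier carries these symbols, with no measured value in the rule, and they are 6 of 55359 genes in the deposited table. All 6 passed the filter on low values, which asked for an average of 1 normalized count or more over the tumors, and so belong to the 24560 genes tested. A normalized count is the number of reads of a gene divided by 1 size factor per tumor.

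Both groups were immunocompetent C57BL/6 J mice that received an orthotopic injection of K8484 cells into the pancreas at 10 weeks of age. K8484 is a luciferase-expressing line of the KPC model, whose alleles include mutant Trp53 and a pancreas-specific Cre, so all 10 tumors derive from the same cell line and differ in the drinking water, given for 14 days. The study used equal numbers of male and female mice, but the sex of each tumor's host was not given in the sources used here. The sample labels read Normoglycemic PDX and Hyperglycemic PDX, where PDX commonly stands for patient-derived xenograft. The study describes the sequenced tumors as KPC orthotopic tumors, and the origin given here follows the study. The N columns of the table were taken as CTRL by their letter and the T columns as D30, the only other group. Tumors are named by these columns, since the column numbers cannot be tied to single labelled replicates.

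Glutathione peroxidases reduce hydrogen peroxide to water and organic hydroperoxides to alcohols, with glutathione as the usual electron donor. In mouse, Gpx1, Gpx2, Gpx3 and Gpx4 carry selenocysteine at the catalytic position, and Gpx5, Gpx6, Gpx7 and Gpx8 have a cysteine codon there. Selenocysteine is inserted at a TGA codon, which elsewhere ends translation, and its insertion depends on selenium supply and on a dedicated set of factors. Gpx1 is the widespread cytosolic enzyme, Gpx2 is best known from gastrointestinal epithelium, Gpx3 is secreted, and Gpx4 reduces phospholipid hydroperoxides within membranes and thereby restrains ferroptosis. Gpx7 and Gpx8 reside in the endoplasmic reticulum, where they pass oxidizing equivalents from peroxide to protein disulfide isomerases.

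The catalytic codon divides the 6 members and is therefore shown for each, with 12 coding bases on either side. The capitals mark the codon, and the sequences are the sense strand of the principal transcripts of GENCODE M21 (GRCm38).
Gpx1: gtcgcgtctctcTGAggcaccacgatc
Gpx2: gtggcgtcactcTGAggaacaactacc
Gpx3: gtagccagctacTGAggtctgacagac
Gpx4: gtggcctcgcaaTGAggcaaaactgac
Gpx7: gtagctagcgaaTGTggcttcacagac
Gpx8: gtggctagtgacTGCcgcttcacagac
The 4 members with TGA are annotated as selenoproteins at this codon, and it stands at codon 47 of 201 in Gpx1, codon 40 of 190 in Gpx2, codon 73 of 226 in Gpx3 and codon 73 of 197 in Gpx4. Gpx7 and Gpx8 have a cysteine codon at the matching position, TGT at codon 56 of 186 and TGC at codon 79 of 209. In translations of these coding sequences, Gpx1 and Gpx2 were the most alike of the 6 members, with 63.2% identity over 190 aligned residues, and Gpx7 and Gpx8 shared 48.4% over 186.

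In GRCm38 the shown stretches lie in coding exons at chr9:108339439-108339465 (Gpx1, plus strand), chr12:76795244-76795270 (Gpx2, minus strand), chr11:54907244-54907270 (Gpx3, plus strand), chr10:80054725-80054751 (Gpx4, plus strand), chr4:108403418-108403444 (Gpx7, minus strand) and chr13:113045649-113045675 (Gpx8, minus strand). No exon of the 6 genes overlapped an exon of another annotated gene. Gpx4 and Gpx2 have processed copies elsewhere. Gpx4-ps2 (chr10:45875291-45876086) matched the Gpx4 transcript at 99.7% of 762 aligned bases, and Gpx2-ps1 matched Gpx2 at 98.2% of 571, so reads of these pairs could be split in counting and both genes are uncertain to that extent. The value of Gpx4-ps2 was 4.44% to 5.84% of that of Gpx4 in every tumor. Gpx2-ps1 held at most 7 reads in any tumor.

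The libraries held 29192261 to 42122304 reads per tumor and 20482 to 25912 genes with a read. Keratins and E-cadherin marked the tumors as epithelial, with Krt8 at 60374 to 179473 normalized counts, while Epcam was low throughout, at 0 to 191. T4 and T5, both of D30, stood apart. T5 had the fewest genes with a read and 187883 normalized counts summed over 5 erythroid markers, against at most 7298 in any CTRL tumor. T4 was shifted by transcript length: protein-coding genes averaging 100 or more normalized counts whose principal transcript has up to 1000 bases lay a median of 1.14 above their own median over the 10 tumors on the log2 scale, and those over 6000 bases had a median deviation of -0.68. In the other 9 tumors the corresponding medians ran from -0.38 to 0.28 and from -0.20 to 0.20. The members are short, with principal transcripts of 959 to 1594 bases, so each member's log2 difference is given with and without T4. Levels per kilobase, shares and coefficients of variation include T4. The part of transcript length in the results was not tested beyond these values.

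**Figure D1:**
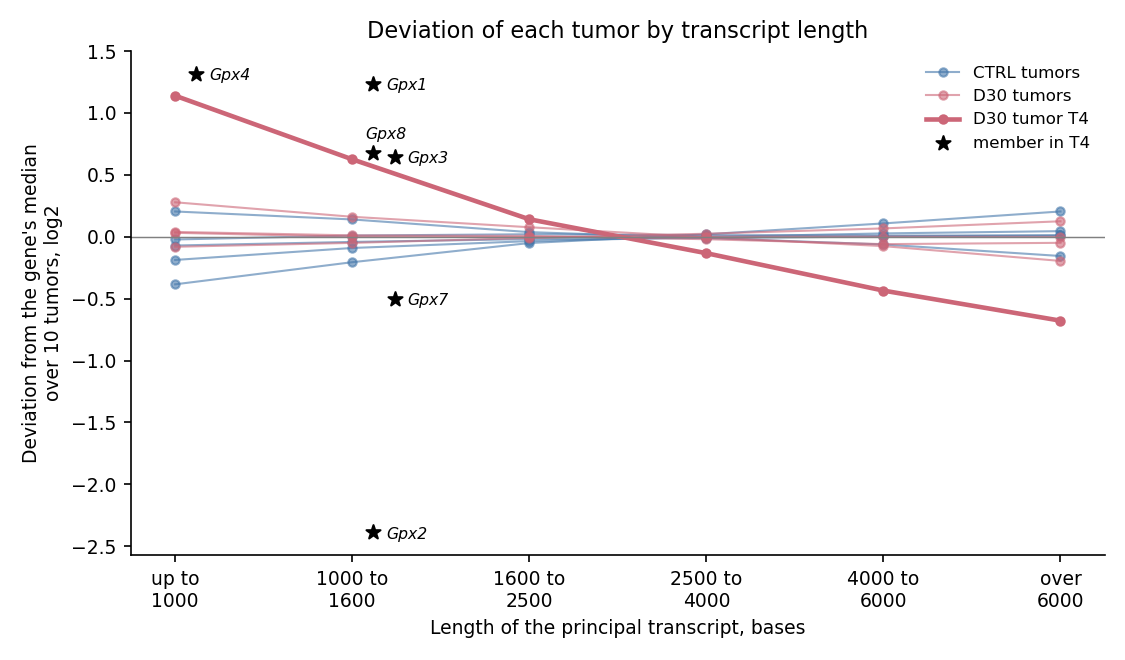
Median deviation of each tumor (y axis, log2) from each gene's median over the 10 tumors, for protein-coding genes grouped by the length of the principal transcript (x axis, bases). Each line is 1 tumor, blue for CTRL and red for D30, and T4 (thick line) falls from 1.14 to -0.68; stars give each member's deviation in T4 from its own median over the 10 tumors, placed at its length class and with no correction for length, from -2.39 for Gpx2 to 1.32 for Gpx4.

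Per kilobase of principal transcript, Gpx1 was the most abundant member, followed by Gpx4 and Gpx3, in 10 of 10 tumors. The level of Gpx1 was 17475 ± 4717 normalized counts per kilobase in CTRL and 22299 ± 10583 in D30 (SD, n = 5 each), and that of Gpx4 was 10774 ± 2280 and 15037 ± 7726. Gpx1 stood above Gpx4 by a factor of 1.18 to 1.87 within each tumor. Both genes together made up 90.2% to 95.9% of the summed level of the 6 members, with the highest share in T4. Gpx3, the secreted member, followed at 1819 ± 767 per kilobase in CTRL and 1471 ± 690 in D30.

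The other members were far lower, and their order varied between tumors. Gpx8 had 328 ± 144 normalized counts per kilobase in CTRL and 195 ± 94.0 in D30, Gpx7 had 258 ± 56.0 and 289 ± 58.7, and Gpx2 had 92.0 ± 84.5 and 211 ± 199. Within each group the ranges of neighbours in this part of the order overlapped. For Gpx7 and Gpx2 in CTRL, at 207 to 343 and 31.8 to 235, this was only through the Gpx2 level of N1. Gpx8 was above Gpx7 in 4 of 5 CTRL tumors, in N6 with a ratio of Gpx7 to Gpx8 of 0.99996, and in 1 of 5 D30 tumors, T4. Gpx2 was the lowest member in 5 of 5 CTRL tumors and in 2 of 5 D30 tumors, T4 and T5. With the union of all annotated exons as length, the first 3 places were the same in 10 of 10 tumors, Gpx2 was last in 9 of 10, and Gpx8 was above Gpx7 in 4 of 10 rather than 5, with N6 reversed. The remaining mouse members were near absent: Gpx5 had 3 reads and Gpx6 had 2 reads, all in T4, and none in the other 9 tumors, where a count of 0 allows up to 3 reads.

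**Figure D2:**
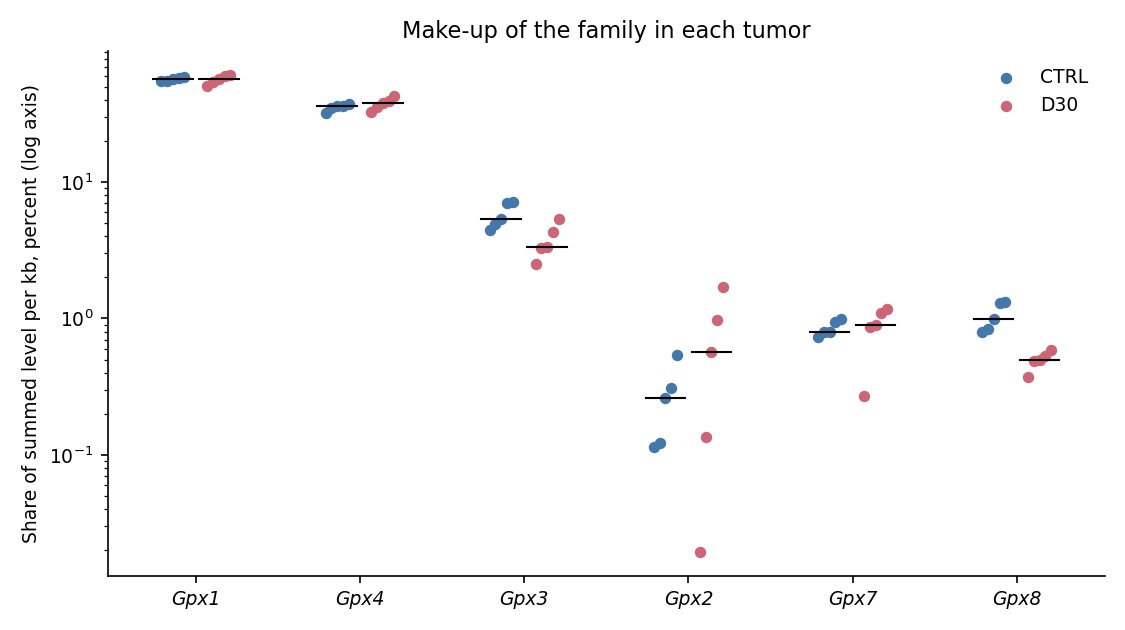
Share of each member in the summed level per kilobase of the 6 members (y axis, percent, log axis), with 1 point per tumor, blue for CTRL and red for D30, and a bar at the group median. Gpx1 and Gpx4 hold 90.2% to 95.9% of the sum in every tumor, and the D30 points of Gpx8 lie below all CTRL points.

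The question of the comparison was whether tumors of mice with raised glucose intake differed from CTRL tumors in these peroxidases. None of the 6 members passed an adjusted p under 0.05 in limma's moderated test (Benjamini-Hochberg over all 24560 genes), where 2.76% of all genes tested did. On the recovered reads, edgeR's quasi-likelihood test called 0 of 6 members and 2.61% of all genes with TMM scaling (2.66% with DESeq2's size factors), and DESeq2 called 0 of 6 and 8.76% of the genes to which it gave an adjusted p. At an unadjusted p under 0.05, limma picked 1 of 6 members, Gpx8, against 17.3% of all genes. The CTRL and D30 values overlapped for all 6 members, while they did not overlap for 6.19% of genes tested. Of the members, 4 were higher on average in D30 and 2 were lower, with a median log2 difference of 0.23 beside -0.06 over all genes tested. Without T4 the members' median was 0.084 beside -0.05, and under library-size scaling it was 0.0023 beside -0.27. The direction did not follow the catalytic codon: of the members with TGA, Gpx3 was lower and Gpx1, Gpx2 and Gpx4 were higher, and of those with a cysteine codon, Gpx7 was higher and Gpx8 lower. None of these directions passed the test.

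Gpx1, the cytosolic enzyme, had normalized counts of 26963 (N1), 15393 (N2), 19274 (N4), 13974 (N5) and 18061 (N6) in CTRL. In D30 they were 18265 (T1), 19195 (T2), 43994 (T4), 16818 (T5) and 21252 (T7). All D30 tumors other than T4 lay within the CTRL range. The log2 difference, D30 minus CTRL on the log2(normalized count + 1) scale, was 0.29 (SE 0.28, 95% interval -0.31 to 0.89, limma adjusted p = 0.644), and without T4 it was 0.04 (adjusted p = 0.915).

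Gpx4, the phospholipid hydroperoxide reductase, had 13344 (N1), 9001 (N2), 11779 (N4), 7962 (N5) and 9575 (N6) normalized counts in CTRL. In D30 it had 8724 (T1), 10159 (T2), 27256 (T4), 12731 (T5) and 13233 (T7). T4 again was the highest of the 10 tumors and the other D30 tumors fell inside the CTRL range. The log2 difference was 0.38 (SE 0.28, 95% interval -0.23 to 0.997, limma adjusted p = 0.529), and 0.12 without T4 (adjusted p = 0.743). In T4, Gpx1 and Gpx4 lay 1.23 and 1.32 above their medians over all tumors on the log2 scale, where the length trend of that tumor alone came to 0.84 and 0.94 at their transcript lengths. With that trend subtracted in every tumor, the differences were 0.04 for Gpx1 and 0.09 for Gpx4.

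Gpx3, the secreted member, had 4910 (N1), 2941 (N2), 2802 (N4), 1814 (N5) and 2033 (N6) normalized counts in CTRL. In D30 it had 1111 (T1), 1598 (T2), 3804 (T4), 2113 (T5) and 3101 (T7). T1 and T2 were below every CTRL tumor and the other D30 tumors were inside the CTRL range. The log2 difference was -0.35 (SE 0.35, 95% interval -1.10 to 0.40, limma adjusted p = 0.655). Without T4 it was -0.56 (adjusted p = 0.312), without T1 it was -0.12 (adjusted p = 0.883), and without N1 -0.14 (adjusted p = 0.873).

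Gpx2, the member known from gastrointestinal epithelium, was the most variable, with a coefficient of variation of 91.9% in CTRL and 94.4% in D30. Its normalized counts in CTRL were 250.4 (N1), 34.0 (N2), 107.8 (N4), 63.7 (N5) and 35.1 (N6). In D30 they were 504 (T1), 181 (T2), 15.0 (T4), 44.6 (T5) and 380.3 (T7). T1 and T7 exceeded every CTRL tumor, and T4, with 13 reads, was the lowest of all. The log2 difference was 0.70 (SE 0.88, 95% interval -1.20 to 2.61, limma adjusted p = 0.734), which spans 0.436-fold to 6.09-fold. It was 1.43 without T4 (adjusted p = 0.246), 0.19 without T1 (adjusted p = 0.931) and 0.45 after the length trend was subtracted. Without both T4 and T5 it was 2.14 (limma adjusted p = 0.0295). Leaving out both tumors was chosen after the data had been seen, and with it D30 rested on 3 tumors.

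Gpx7 and Gpx8, the peroxidases of the endoplasmic reticulum, went in opposite directions. Gpx7 had 442 (N1), 267 (N2), 307 (N4), 279.7 (N5) and 366 (N6) normalized counts in CTRL and 421 (T1), 347 (T2), 251 (T4), 435 (T5) and 408 (T7) in D30. Its coefficients of variation were 21.7% in CTRL, close to the 21.2% of Gpx4, and 20.3% in D30, the lowest of the 6 there, and the groups overlapped over most of their range. Its log2 difference was 0.16 (SE 0.23, 95% interval -0.34 to 0.67, limma adjusted p = 0.773), 0.30 without T4 (adjusted p = 0.407) and -0.04 after the length trend was subtracted.

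Gpx8 had 592 (N1), 352 (N2), 269.5 (N4), 199 (N5) and 296 (N6) normalized counts in CTRL. In D30 it had 154 (T1), 116 (T2), 370.1 (T4), 188 (T5) and 189 (T7). The D30 tumors other than T4 were all below the lowest CTRL tumor, and T4 was second to N1 among the 10. The log2 difference was -0.76 (SE 0.35, 95% interval -1.52 to -0.0050, limma adjusted p = 0.286), a 0.590-fold level in D30. Without T4 it was -1.01 (adjusted p = 0.0639), without both T4 and T5 -1.09 (adjusted p = 0.0393), and after the length trend was subtracted -1.02 (adjusted p = 0.0527). Without N1 it was -0.54 (adjusted p = 0.466). A further limma fit weighted each tumor by its own scatter. T4 received a weight of 0.135 and T5 of 0.229, beside 0.538 to 3.49 in the other tumors. There the limma adjusted p was 0.0126 for Gpx8 and 0.00840 for Gpx2, whose difference was 2.29. The weighted fit called 3829 of the 24560 genes tested, against 678 in the unweighted fit. Omission of T4 and T5 also raised the number of all genes called.

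**Figure D3:**
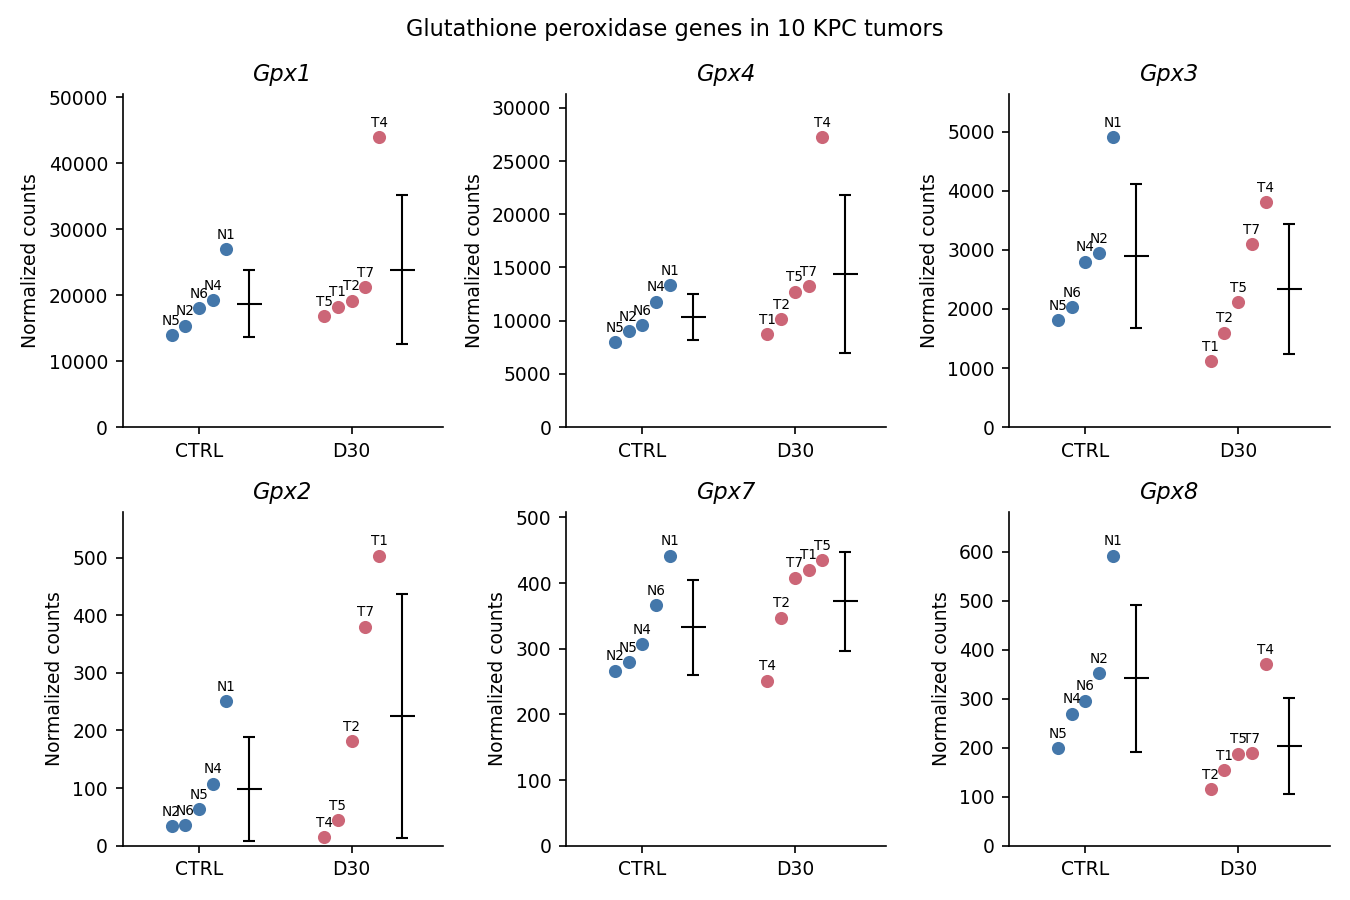
Normalized counts (y axis) of each member in the 5 CTRL and 5 D30 tumors, with 1 labelled point per tumor and the group mean ± SD beside them. T4 is the highest tumor for Gpx1 and Gpx4 and the lowest for Gpx2 and Gpx7, and 4 of 5 D30 tumors lie below all CTRL tumors for Gpx8.

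**Figure D4:**
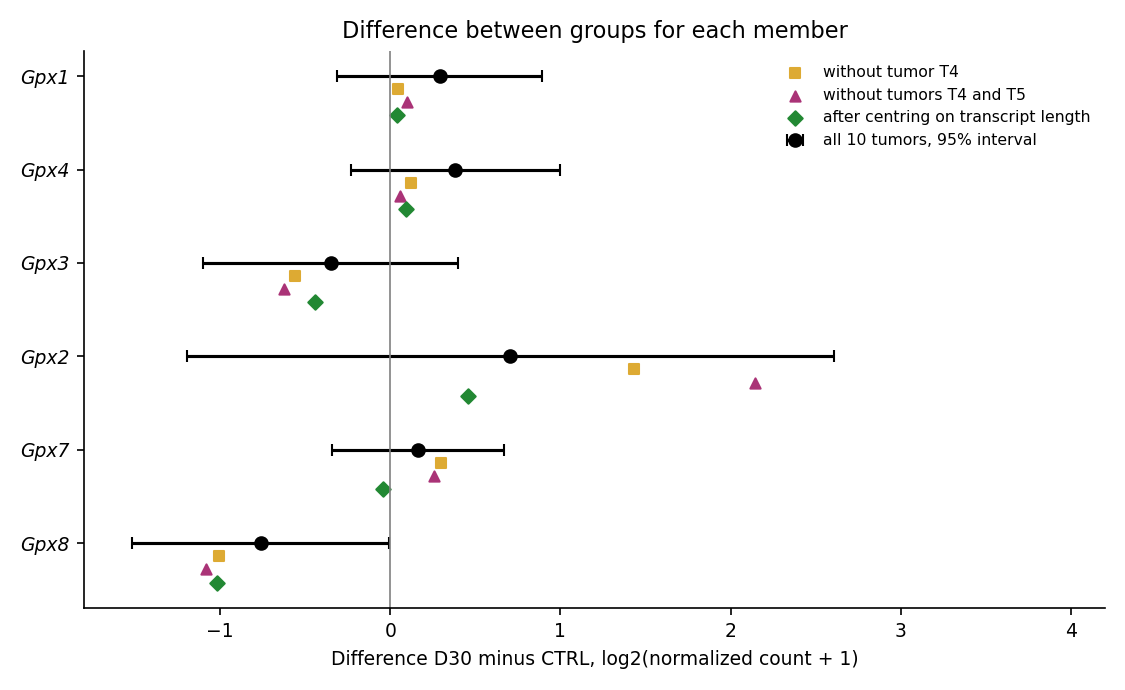
Difference D30 minus CTRL for each member (x axis, log2 of normalized count + 1). Black points and bars give the value from all 10 tumors with its 95% interval, and the other symbols give the value without T4, without T4 and T5, and after subtraction of each tumor's transcript length trend; Gpx1 and Gpx4 fall to between 0.04 and 0.12, and Gpx8 goes from -0.76 to between -1.01 and -1.09.

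Within the family, the share of Gpx8 in the summed level per kilobase was 0.793% to 1.31% in CTRL and 0.369% to 0.584% in D30, with no overlap between groups and with T4 inside the D30 range. This was 1 of 6 members, and the same ratio to the family's sum did not overlap for 5.51% of all genes tested. The shares of the other 5 members overlapped. That of Gpx3 was 4.44% to 7.11% in CTRL and 2.51% to 5.34% in D30. The ratio of Gpx7 to Gpx8 per kilobase ran from 0.603 to 1.14 in CTRL and from 1.75 to 2.43 in D30 except for T4, where it was 0.548.

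Summed levels of cell type markers are given beside these values, since in bulk tumors fewer cells of a type and less RNA per cell cannot be told apart. The summed level of 8 fibroblast markers was 76539 to 135533 normalized counts in CTRL and 26981 to 102553 in D30. Of these 8, 6 had an unadjusted limma p under 0.05, beside 17.3% of all genes, and 0 were called, beside 2.76%. T4 had the lowest fibroblast sum of the 10 tumors, 26981, and Gpx8 at 370, second to N1. T2 had the next lowest fibroblast sum, 52888.5, and the lowest Gpx8, 116. The sum of 5 endothelial markers was 10082 to 16799 in CTRL and 4115 to 8398 in D30. Of these 5, 3 had an unadjusted p under 0.05 and 1 was called. The called gene, Cdh5, gave 7205 to 14529 and 2480 to 6142 of these sums. Tek reached 655 in T1 and 692 in T7, against at most 470 in CTRL, and was below every CTRL tumor in the other 3 D30 tumors. The sum of 7 macrophage markers was 18392 to 30798 in CTRL and 9629 to 26593 in D30. Of these 7, 4 had an unadjusted p under 0.05 and 1, Csf1r, was called. Cd68 went the other way, with a log2 difference of 0.33 (limma adjusted p = 0.426) and 4 D30 tumors above every CTRL tumor. The sum of 7 epithelial markers was 209932 to 335568 in CTRL and 341412 to 475748 in D30. All 7 had an unadjusted p under 0.05, and 0 of 7 were called. Epcam, at 15.9 to 191 in CTRL and 0 to 62.5 in D30, was among them but went the other way from that sum. Markers of intestinal epithelium, the tissue in which Gpx2 is best known, numbered 5 and summed to 32385 to 72868 in CTRL and 65857 to 232126 in D30. Of the 4 tested, 3 had an unadjusted p under 0.05 and 0 were called. Lgals4 gave 23598 to 65273 and 57443 to 227377 of these sums, and Cdx1 was at 0 in all tumors but T4, where it had 1.16 normalized counts. T4 had the highest intestinal sum of the 10 tumors, 232126, and the lowest Gpx2, 15.0. T5 had the lowest intestinal sum of D30, 65857, and Gpx2 at 44.6, above only T4 in that group. The sum of 5 neutrophil markers was 632 to 2938 in CTRL and 765 to 13781 in D30, and that of 5 T cell markers 206 to 454 and 139 to 227. The sum of 7 acinar markers was 270.4 to 60143 and 144 to 5563, and that of 6 adipocyte markers 1550 to 5046 and 1844 to 2304. In these 4 lists 0 were called, and 3, 1, 3 and 0 markers, in this order, had an unadjusted p under 0.05. The part of cell makeup in the differences of Gpx2, Gpx3 and Gpx8 was not tested.

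After each group's mean was subtracted, Gpx1, Gpx3, Gpx4 and Gpx8 rose and fell together over the 10 tumors, with Pearson r between 0.75 (Gpx1 and Gpx3) and 0.92 (Gpx1 and Gpx4). Without T4, r was between 0.68 and 0.89 over 9 tumors, and after the length trend was subtracted it was between 0.48 and 0.78. Gpx2 and Gpx7 had r of 0.64 with each other, which was 0.34 without T4. With Gpx1, r was -0.27 for Gpx2 and -0.25 for Gpx7 over the 10 tumors, and 0.67 and 0.74 without T4. The values share their libraries, size factors and length trend, and these r are descriptions.

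Among 11481 genes averaging 100 or more normalized counts, those whose values over the 10 tumors were most like Gpx1, again with group means subtracted, were Lsm3 (r = 0.998), Atp5f1 (0.996) and Bcap31 (0.993), and those most like Gpx4 were Rbx1 (0.994), Cox4i1 (0.991) and Snrpc (0.991). Without T4, r was 0.979 to 0.994 for the 3 genes of Gpx1 and 0.972 to 0.981 for those of Gpx4. For Gpx3 the most alike genes were Hexa (0.98), Erp29 (0.96) and H2-DMb1 (0.96), with r of 0.95 to 0.97 without T4. For Gpx8 they were the matrix glycoprotein gene Sparc (0.97), Hax1 (0.96) and Sgce (0.96), with r of 0.93 to 0.97 without T4. For Gpx2 they were the complement gene Hc (0.96), Akap11 (0.95) and Tra2a (0.95), with r of 0.90 to 0.93 without T4. For Gpx7 the likeness was lower, with Ccsap (0.91), Snora31 (0.88) and Myo1g (0.87), and r of 0.76 to 0.82 without T4.

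Glutathione, the electron donor, depends on 19 listed genes of cystine uptake, synthesis, breakdown, regeneration and mitochondrial import, all tested. Of these, 10 were higher and 9 lower in D30, and limma called 1 of 19, beside 2.76% of all genes tested. The groups did not overlap for 1 of 19, beside 6.19% of all genes tested. The median log2 difference was 0.04, and -0.05 to 0.13 on omission of 1 tumor. The called gene was Gclc, the catalytic subunit of the enzyme that limits glutathione synthesis, at 10848 to 19414 normalized counts in CTRL and 6315 to 7990 in D30, with no overlap and a log2 difference of -0.996 (SE 0.18, limma adjusted p = 0.0127), which without N2 had an adjusted p above the threshold. Glutathione reductase, Gsr, which returns oxidized glutathione to its reduced form, had 7535 to 14722 in CTRL and 6188 to 11521 in D30, a log2 difference of -0.24 (SE 0.22, adjusted p = 0.628), which was -0.11 without T4 and -0.12 without N4. Ggt1 and Ggt6, of the gamma-glutamyltransferase family, had log2 differences of 1.39 and 1.13 with limma adjusted p of 0.285 and 0.271. Both were called without T4, where 1573 of all genes tested were called, beside 678 with all tumors.

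Selenium supply and selenoprotein synthesis had 13 genes, of which 4 were higher and 9 lower, with a median of -0.14, which was -0.027 without T4. Of the 13, 1 was called by limma, beside 2.76% of all genes tested. The called gene was Lrp2, or megalin, an endocytic receptor that takes up selenoprotein P among other ligands, with 2596 to 4081 normalized counts in CTRL and 383 to 2763 in D30. Its log2 difference was -1.83 (SE 0.45, limma adjusted p = 0.0491), just under the threshold, and the groups overlapped through T1, at 2763. The call was lost in 14 of 23 alternatives. Sephs1, of the selenophosphate synthetase family, and Secisbp2l, which resembles the factor that binds the selenocysteine insertion element, had differences of -0.61 and -0.58. Their limma adjusted p were 0.145 and 0.188. Both were called without T4, where 1573 of all genes tested were called, beside 678 with all tumors. Selenop, the selenium carrier, reached 120789 in T4 against 19222 to 32150 in the other D30 tumors and 24475 to 64079 in CTRL.

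The other selenoproteins numbered 18, of which 17 were tested, with 12 higher, 5 lower and 0 called by limma. An unadjusted p under 0.05 was reached by 2 of 17, beside 17.3% of all genes. DESeq2 called 1 of them, beside 8.76% of all genes, and edgeR 0. The groups did not overlap for 1 of 17, beside 6.19% of all genes tested. Dio1, a deiodinase that acts on thyroid hormone, did not overlap between groups, at 4.34 to 29.1 normalized counts in CTRL and 35.5 to 148 in D30, with a log2 difference of 1.87 (SE 0.54, limma adjusted p = 0.0861). Selenow and Selenon had differences of 0.70 and -0.67 with limma adjusted p of 0.244 and 0.295, and of 0.46 and -0.37 without T4.

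Enzymes that remove peroxide by other means, catalase and the peroxiredoxins, numbered 7, with 4 higher, 3 lower and 0 called by limma, and 3 at an unadjusted p under 0.05, which 17.3% of all genes passed. DESeq2 called 2 of them, beside 8.76% of all genes, and edgeR 0. Their median was 0.14, and -0.11 without T4. Prdx6, a peroxiredoxin that also reduces phospholipid hydroperoxides with glutathione, had 5105 to 6110 normalized counts in CTRL and 7270.4 to 10490.1 in D30, with no overlap and a log2 difference of 0.64 (SE 0.16, limma adjusted p = 0.0538). It was 1 of 7 without overlap, beside 6.19% of all genes tested. Prdx5 had a difference of 1.17 (adjusted p = 0.160 in limma), with 28731 in T4 against at most 13430 in the other D30 tumors, and a difference of 0.77 without T4. Catalase, Cat, had a difference of -0.53 (limma adjusted p = 0.170).

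Genes of disulfide formation in the endoplasmic reticulum, the compartment of Gpx7 and Gpx8, numbered 15, with 10 higher, 5 lower and a median of 0.32. Of the 15, 1 was called by limma, beside 2.76% of all genes tested. The called gene was Ero1a, named Ero1l in the annotation used, the oxidase that generates hydrogen peroxide as it reoxidizes protein disulfide isomerase. It had 1906 to 5832 normalized counts in CTRL and 6816 to 35011 in D30, the latter in T5, with no overlap and a log2 difference of 1.91 (SE 0.44, limma adjusted p = 0.0350). The call was lost on leaving out any one of 6 single tumors. The chaperone gene Hspa5 and the disulfide isomerase gene Pdia6 did not overlap between groups either, with differences of 0.78 and 0.53 and limma adjusted p of 0.0704 and 0.0989. In all, 3 of 15 did not overlap, beside 6.19% of all genes tested.

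Lipid peroxidation and ferroptosis, the process Gpx4 restrains, had 18 genes, with 12 higher and 6 lower. Of the 18, 2 were called by limma, beside 2.76% of all genes tested. The list's median was 0.39, which was 0.13 without T5, 0.25 without T4 and 0.082 without both. Tfrc, the transferrin receptor of iron uptake, had 1532 to 2685 normalized counts in CTRL and 3355 to 5236 in D30, a log2 difference of 1.10 (SE 0.21, limma adjusted p = 0.0141). Gch1, which starts the synthesis of tetrahydrobiopterin, had 812 to 1377 in CTRL and 1919 to 6182 in D30, a difference of 1.25 (SE 0.31, limma adjusted p = 0.0492). The groups did not overlap for either gene, which made 2 of 18, beside 6.19% of all genes tested. The call of Gch1 was lost in 11 of 23 alternatives and that of Tfrc in 2, library-size scaling and omission of N2. Ftl1, the ferritin light chain, had a difference of 0.61 (limma adjusted p = 0.185).

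**Figure D5:**
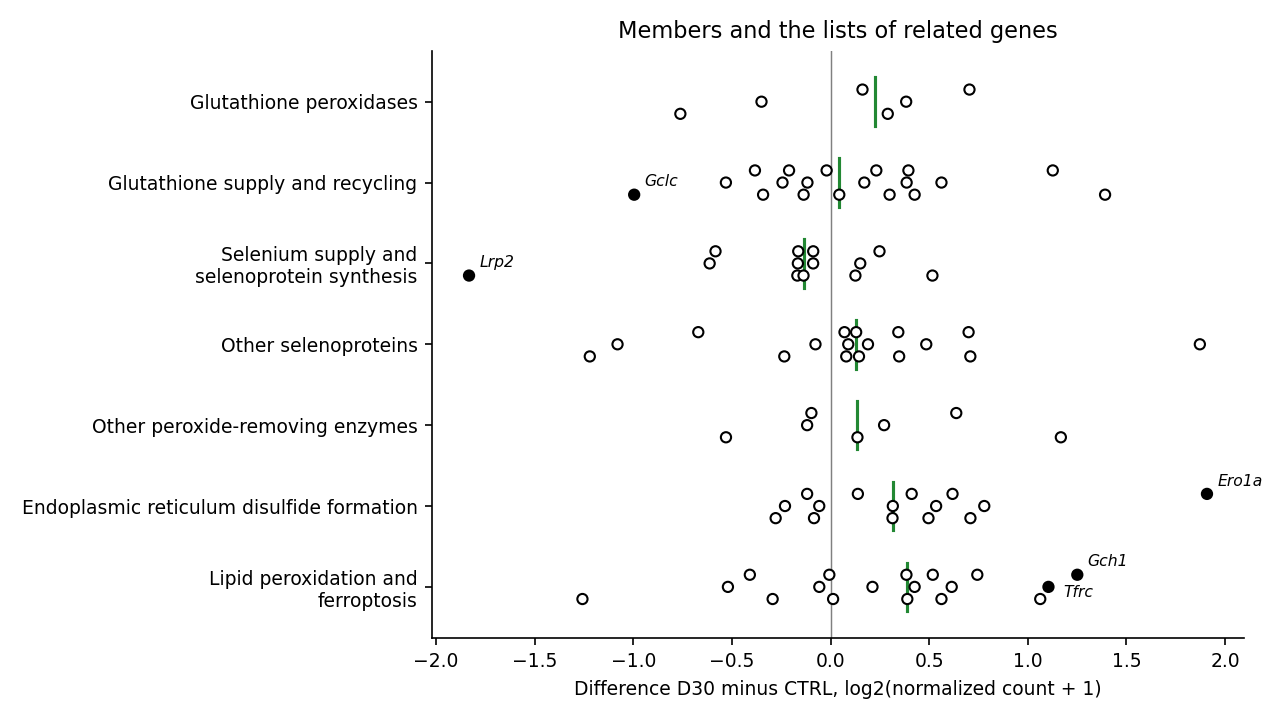
Difference D30 minus CTRL (x axis, log2 of normalized count + 1) for the 6 glutathione peroxidases and for the tested genes of 6 related lists, 1 point per gene, filled where limma's adjusted p was under 0.05 and with a green bar at the median. No glutathione peroxidase is filled, and the named points are Gclc, Lrp2, Ero1a, Tfrc and Gch1.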

How the data were processed

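RNA was sequenced from 10 tumors in strand-specific 150-bp paired-end libraries. Per the labels and the study's methods, reads were trimmed with Trim Galore, aligned with STAR (2.7.0e) and normalized with DESeq2. The labels name GRCm39 and the methods hg38, and the methods also list RSEM among the software. The annotation and counting settings are not given in the sources used here. The deposited signal is a normalized count, a gene's reads divided by the tumor's size factor, and 100% of values gave whole reads within a tolerance of 0.01. Names, lengths and positions came from GENCODE M21 (GRCm38), which named 52083 of 55359 identifiers (94.1%). Because the values are normalized, limma (3.58.1, R 4.3.3, mean-variance trend) was run on log2(normalized count + 1) for genes with a mean of at least 1. An adjusted p under 0.05 was a call. edgeR (4.0.16) and DESeq2 (1.42.0) on recovered reads, other scalings, pseudocounts, filters, tumor weights and omission of each tumor were alternatives. P values measure the spread between these tumors. Members and lists were chosen with earlier results of these data known. Text names the members, each list's called genes, the smallest p up to 3 genes a list, Gclc, Gsr, and per member the 3 genes of highest r, without predicted genes and pseudogenes. Selenop, single cell type markers, the remaining family members and the processed copies of Gpx4 and Gpx2 are named outside that choice. Ero1a and Ero1b were matched through RefSeq synonyms.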

Additional observations from a re-analysis of the deposited data

Results flagged for a closer look

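In the D30 group, T4 lay far from the other 4 tumors for 3 members: Gpx1 with 43994 normalized counts, Gpx4 with 27255.5 and Gpx8 with 370.115. The gap to the nearest tumor was 0.837, 0.757 and 0.714 of the group's range, above Dixon's critical value of 0.71 for 5 samples. In all, 12 groups of 5 tumors were tested and 3 passed. The critical value passes about 1 in 20 groups of independent, normally distributed values. Here the 3 share T4 and come from members that rose and fell together, so that rate cannot be set against them. All of them fall in the tumor whose short transcripts were raised, and the part of that shift in these values was not tested further.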

How the results depend on the processing

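No paired analysis was possible because the table's columns carry no replicate numbers of the labels. Nor do the study's methods describe pairs: tumor-bearing mice were randomized to treatment. The replicate numbers are therefore not known to mark matched mice, and the groups were compared as independent tumors. Under the 10 other scalings, filters, pseudocounts and count tools, on omission of any 1 tumor and after length centring, no member was called. With tumor quality weights 2 members were called, Gpx2 at 2.29 and Gpx8 at -0.98, and without both T4 and T5 also 2, at 2.14 and -1.09. Gpx7 turned to -0.061 under library-size scaling, which moved the median of all genes to -0.27, and to -0.042 after length centring. The cause was not tested. Length centring and omission of T4 and T5 were chosen after seeing the data. Of all genes, 1957 were called by DESeq2 (8.76%), 3829 with weights, 2418 without T4 and T5, and 279 to 1573 on omission of 1 tumor (without N2 and without T4). The main fit called 678 (2.76%), and edgeR 642 with TMM and 653 with DESeq2's size factors. Of the alternatives that were not omissions of 1 tumor, the lowest total was 600, with no filter. The counts per list below are to be read against these totals. Calls for glutathione supply were 2 (DESeq2), 5 (weights), 5 (without T4 and T5) and 0 to 4 on omission of 1 tumor. For selenium supply they were 0 (pseudocount 10, no filter, mean of at least 10, TMM, both edgeR fits), 2 (library size), 3 (weights), 3 (without T4 and T5) and 0 to 3. For other selenoproteins they were 1 (DESeq2), 3 (weights) and 1 (without T4 and T5). For other peroxide-removing enzymes they were 1 (mean of at least 10, upper quartile, length centring, without T4 and T5), 2 (DESeq2), 3 (weights) and 0 to 1. For disulfide formation they were 3 (DESeq2), 6 (weights), 3 (without T4 and T5), 2 (length centring) and 0 to 4. For lipid peroxidation they were 3 (DESeq2 and weights), 1 (no filter), 0 (library size), 1 (upper quartile) and 0 to 2. Depth limits Gpx2 most, with 13 reads in T4; counting error is the only error such floors cover.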
